A study of Mus musculus with 6 samples.

Results

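White and brown fat genes were followed across heart RNA of WT and VAChT KDHOM mice to see how far the arrays differed in the fat they carried. The 9 genes chosen were the white fat genes Adipoq, Cfd, Plin1, Retn, Lep and Cidec, the brown fat genes Ucp1 and Cidea, and Car3, which adipose tissue and muscle share. Every probe set that the platform annotation names with 1 of these symbols was taken, which gave 8 probe sets of 35556, 1 for each gene except Cfd. Cfd, which encodes the complement protease factor D that adipocytes secrete, has no probe set of its own name in the annotation used and was not analysed here.

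RNA came from male mice of 3 months that had received no treatment, and each of the 6 arrays held a pool of 2 RNA samples. The 3 arrays labelled WT came from wild-type mice, and the 3 labelled VAChT KD came from VAChT KDHOM mice, which are homozygous for a knockdown of the vesicular acetylcholine transporter that loads acetylcholine into synaptic vesicles. No allele or agent other than that knockdown is named. The labels give the strain as C57BL/6 and the tissue as heart, whereas the methods of the study name ventricles and a mixed C57BL6/j background. The study asked which genes change in the heart when cholinergic transmission is lowered for long.

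White adipocytes store triglyceride in a single large lipid droplet and secrete hormones such as adiponectin and leptin. Brown adipocytes burn fatty acids in mitochondria that are uncoupled by Ucp1, so that the energy is released as heat. Fat lies on the outside of the heart and along the great vessels, and the heart muscle itself takes up and burns fatty acids, so several genes of lipid handling are active in both cell types. In bulk RNA, fewer cells of a type and less RNA per cell cannot be told apart.

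The promoters of the members whose signals are compared across arrays most closely are printed as the 250 bases before the transcription start, from RefSeq on GRCm38.p6, in the 5′ to 3′ direction of the gene. Capitals mark each match, on either strand, to the 4 motifs that were searched: TATAAA of the TATA box, the box CCAAT, a form of the C/EBP site written TTGCNNAA, and AGGTCA, the hexamer that nuclear receptors bind. Over 32851 promoters of this length, 12.4% held TATAAA, 33.8% CCAAT, 9.56% TTGCNNAA and 14% AGGTCA. Ucp1 is shown because its signal stood apart on 1 array, and Adipoq, Retn and Cidec because their highest and lowest signals fell on the same arrays. For Cidec the table has 2 starts and both are given.
Ucp1, chr8:83290098-83290347, plus strand: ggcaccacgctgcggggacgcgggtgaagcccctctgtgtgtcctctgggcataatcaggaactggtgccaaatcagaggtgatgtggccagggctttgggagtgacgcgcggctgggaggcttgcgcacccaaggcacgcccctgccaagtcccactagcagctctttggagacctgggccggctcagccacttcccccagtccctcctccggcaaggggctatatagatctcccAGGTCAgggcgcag
Adipoq, chr16:23146286-23146535, plus strand: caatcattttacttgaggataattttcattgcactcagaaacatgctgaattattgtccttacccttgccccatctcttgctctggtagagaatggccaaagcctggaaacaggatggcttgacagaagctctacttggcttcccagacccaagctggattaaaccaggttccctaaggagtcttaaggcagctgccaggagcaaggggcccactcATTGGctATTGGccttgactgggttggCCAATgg
Retn, chr8:3655520-3655769, plus strand: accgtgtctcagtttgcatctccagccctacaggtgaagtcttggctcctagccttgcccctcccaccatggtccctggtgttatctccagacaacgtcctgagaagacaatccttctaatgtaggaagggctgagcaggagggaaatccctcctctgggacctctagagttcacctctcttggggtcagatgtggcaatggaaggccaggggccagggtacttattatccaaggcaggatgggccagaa
Cidec, first start, chr6:113435761-113436010, minus strand: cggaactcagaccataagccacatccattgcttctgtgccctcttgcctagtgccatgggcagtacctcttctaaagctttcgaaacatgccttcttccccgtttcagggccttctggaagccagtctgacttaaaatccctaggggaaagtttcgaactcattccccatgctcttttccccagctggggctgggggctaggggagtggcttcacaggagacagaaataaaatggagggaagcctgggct
Cidec, second start, chr6:113434765-113435014, minus strand: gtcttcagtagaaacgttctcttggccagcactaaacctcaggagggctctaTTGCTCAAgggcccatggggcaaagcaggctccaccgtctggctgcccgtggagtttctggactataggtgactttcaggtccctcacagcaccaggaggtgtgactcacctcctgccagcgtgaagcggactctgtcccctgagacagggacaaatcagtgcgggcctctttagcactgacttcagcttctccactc
The Ucp1 window held AGGTCA from -14 to -9 and none of the other motifs. The Adipoq window held CCAAT 3 times, and those of Retn and the first start of Cidec held none of the 4. TTGCNNAA lay in the second Cidec window from -198 to -191. No motif was shared by all of Adipoq, Retn and Cidec in these windows, and a match or its absence is a description of the letters only.

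Signals are given as the deposited log2 values, in which a step of 1 is a doubling. As a gauge of background, 1023 probe sets of olfactory receptors had a median of 4.71 and a 95th percentile of 6.51, a level called the olfactory limit here. The genes listed for ventricular cardiomyocytes were bright, with a list mean between 12.86 and 13.45 on the 6 arrays. Whether this list tells ventricle from atrium was not tested. Slc18a3, which encodes VAChT, did not separate the labelled groups, at a log2 difference of -0.08 with a standard error of 0.20 and an adjusted p of 0.873 in limma. Ogdhl, a gene of mitochondrial metabolism, read 9.60, 7.21 and 10.33 on WT 1, 2 and 3 and 7.06, 10.17 and 7.09 on VAChT KDHOM 1, 2 and 3, so the arrays labelled 2 each read like the opposite group. The labels were kept, and member differences are given below also without both of these arrays and, as an alternative chosen after seeing the data, with them exchanged between the groups. The p-values measure only the spread between these pools.

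The 8 probe sets did not mark any array as rich in all fat genes. Adipoq and Lep stayed below the olfactory limit on all 6 arrays, Ucp1 passed it on 1 array, and Plin1, Retn, Cidec, Cidea and Car3 were above it on all 6. On the linear scale, the summed signal of the 5 measured white fat members ran from 487.6 on VAChT KDHOM 1 to 604.9 on WT 1, with 600.8 on VAChT KDHOM 3, so the highest was 1.24 times the lowest. Over all 8 members it ran from 1227.8 on VAChT KDHOM 1 to 1810.5 on VAChT KDHOM 3, which is 1.47 times. This sum includes Car3, which muscle shares and which read 7.77 on VAChT KDHOM 1 and 9.35 on VAChT KDHOM 3 in log2. Both sums hold signals below the olfactory limit, so their ratios are not ratios of fat content. The summed signal of Ucp1 and Cidea ran from 481.8 on WT 2 to 607.4 on WT 1. Cidea held the larger part of it, with log2 signals of 8.70 to 8.97 against 5.79 to 7.41 for Ucp1. The signals that moved most were those of Ucp1 on WT 1 and of Car3 across both groups.

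Among the secreted products of white fat, Adipoq (probe set 10434747) encodes adiponectin, the hormone made by adipocytes. It read 5.85, 6.07 and 5.93 on WT 1, 2 and 3 and 5.69, 5.84 and 6.13 on VAChT KDHOM 1, 2 and 3. The highest and the lowest value both fell on VAChT KDHOM arrays, and the groups overlapped. The log2 difference between the means of 3 arrays each, VAChT KDHOM minus WT, came to -0.06 with a standard error of 0.13 and an adjusted p of 0.837 in limma, and its sign turned to 0.0096 after a further quantile normalization and to 0.0021 after median centring. The range over the 6 arrays, highest minus lowest log2 signal, was 0.43, wider than in 60.5% of all probe sets.

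Lep (10536789) encodes leptin, the satiety hormone of adipocytes. Its signals were 6.14, 6.19 and 6.17 in WT and 6.01, 6.06 and 6.00 in VAChT KDHOM, in the order of the array numbers. All 3 VAChT KDHOM arrays lay below all 3 WT arrays, but the values spanned 0.19, wider than in only 10.8% of probe sets, and all lay below the olfactory limit. The log2 difference was -0.14 (standard error 0.07, adjusted p = 0.46 from limma), and the groups overlapped after quantile normalization and after median centring. Beside it, the olfactory receptor probe sets had a median log2 difference of -0.11.

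Retn (10569870) encodes resistin, which mouse adipocytes secrete. It read 7.09, 7.09 and 6.75 on the WT arrays and 6.64, 6.75 and 7.32 on the VAChT KDHOM arrays. VAChT KDHOM 3 was the highest and VAChT KDHOM 1 the lowest, with the WT arrays between them. The log2 difference of -0.07 had a standard error of 0.19 (adjusted p = 0.881 from limma), and the range of 0.68 was wider than in 84.4% of probe sets.

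The next 2 genes encode proteins of the lipid droplet. Plin1 (10564795), the perilipin that coats the droplet and controls access of lipases, read 7.52, 7.26 and 7.18 in WT and 7.11, 7.10 and 6.99 in VAChT KDHOM. The WT arrays were all above the VAChT KDHOM arrays, with WT 1 the highest. The log2 difference was -0.25 with a standard error of 0.11, an unadjusted p of 0.0462 and an adjusted p of 0.421 in limma. Groups remained apart under both other scalings, but the unadjusted p in limma was then 0.0674 with quantile normalization and 0.0862 with median centring. Among the 6 fits that left out an array, 1 kept the unadjusted p under 0.05. Without WT 1 the difference came to -0.15 with an unadjusted p of 0.119 in limma.

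Cidec (10546929), which encodes a protein that fuses lipid droplets in white adipocytes, read 7.30, 7.22 and 7.12 in WT and 7.07, 7.16 and 7.49 in VAChT KDHOM. As with Adipoq and Retn, VAChT KDHOM 3 was the highest and VAChT KDHOM 1 the lowest. The log2 difference was 0.03 (standard error 0.12, adjusted p = 0.94 from limma).

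Of the brown fat genes, Ucp1 (10573152), the uncoupling protein of brown and beige adipocytes, read 7.41, 6.02 and 6.07 on WT 1, 2 and 3 and 5.85, 5.81 and 5.79 on VAChT KDHOM 1, 2 and 3. WT 1 alone was above the olfactory limit, and the other 5 arrays lay below it, so no fold between them is given. The VAChT KDHOM arrays were below all WT arrays, with a log2 difference of -0.68 (standard error 0.34, unadjusted p = 0.086, adjusted p = 0.46 from limma). Without WT 1 the log2 difference was -0.22 (unadjusted p = 0.0274 from limma). The range of 1.62 was wider than in 98.8% of probe sets.

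Cidea (10456392), a droplet protein of brown fat that is related to Cidec, gave a different order. It read 8.77, 8.70 and 8.73 in WT and 8.86, 8.92 and 8.97 in VAChT KDHOM, and stayed above the olfactory limit on all arrays. All VAChT KDHOM arrays were above all WT arrays, with a log2 difference of 0.18 (standard error 0.08, unadjusted p = 0.0438, adjusted p = 0.419 from limma). The groups stayed apart under both other scalings, but quantile normalization took the log2 difference to 0.12 with an unadjusted p of 0.134 in limma. The range of 0.27 was narrower than in most probe sets (percentile 27.8), and the unadjusted p was under 0.05 in 2 of the 6 fits without an array. WT 1, where Ucp1 stood out, was below every VAChT KDHOM array for Cidea, so these brown fat genes did not share an order of arrays.

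Car3 (10490913) encodes carbonic anhydrase 3, an abundant protein of adipocytes and slow skeletal muscle. It read 8.87, 8.35 and 7.98 in WT and 7.77, 8.29 and 9.35 in VAChT KDHOM. The 2 ends of this range of 1.58, wider than in 98.7% of probe sets, were again VAChT KDHOM 3 at the top and VAChT KDHOM 1 at the bottom, a 2.99-fold span within 1 genotype. The log2 difference between groups was 0.07 (standard error 0.40, adjusted p = 0.95 from limma). It was -0.37 without VAChT KDHOM 3 and 0.42 without VAChT KDHOM 1, so its sign rested on single arrays.

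**Figure D1:**
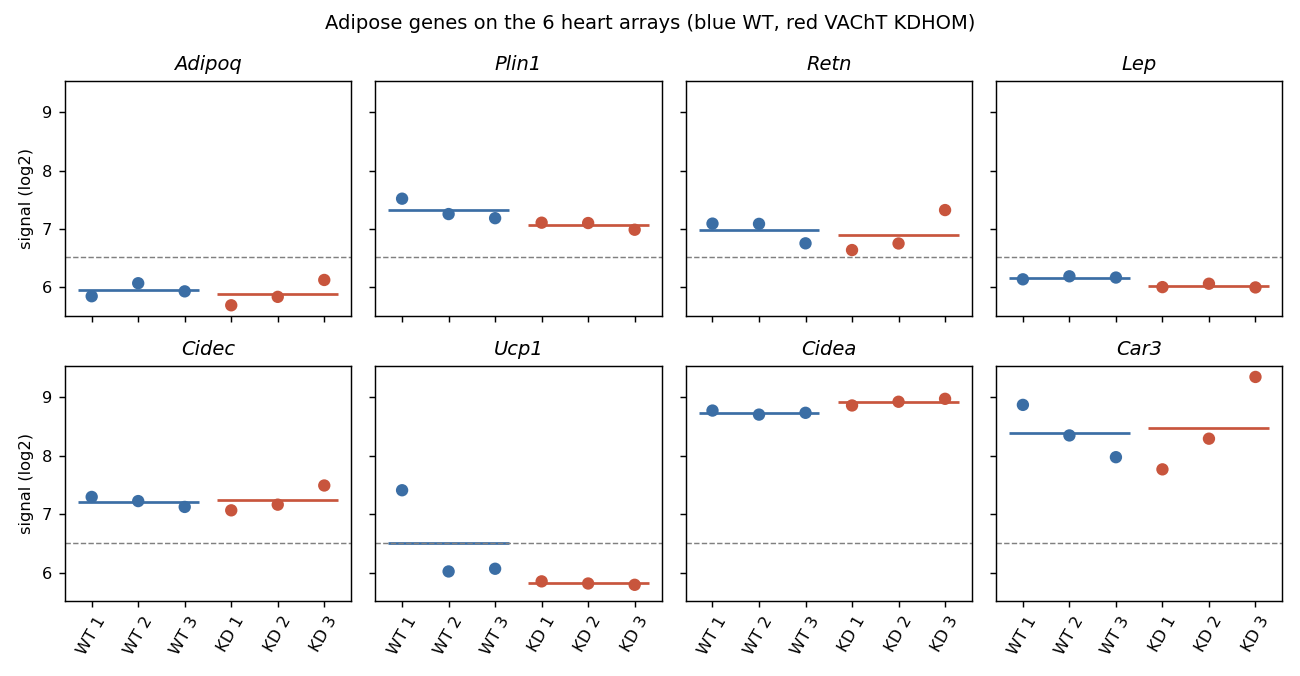
Log2 signal (vertical axis) of the 8 measured fat genes on each of the 6 arrays (horizontal axis; KD stands for VAChT KDHOM), with points for single pools, solid lines for group means and a dashed line at the olfactory limit of 6.51. Ucp1 is at 7.41 on WT 1 and at most 6.07 elsewhere, and Car3 runs from 7.77 to 9.35 within the VAChT KDHOM arrays.

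Read together in the fit over all probe sets, 2 of the 8 members had an unadjusted p under 0.05, Cidea higher and Plin1 lower in VAChT KDHOM, against 11.7% of all probe sets. None of the members also reached 1.3-fold, the second threshold of the study, which 3.79% of all probe sets passed together with the first. At an adjusted p under 0.05 limma called none of the members and 0.00281% of all probe sets, which is 1 probe set. The exact permutation test of 3 arrays against 3, two-sided, cannot go below p = 0.1. It gave this value for Plin1, Lep, Ucp1 and Cidea and values from 0.7 to 1.0 for the other 4.

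Groups did not overlap for Cidea, which was higher in VAChT KDHOM, where 6.25% of all probe sets were separated in that direction. They did not overlap for Plin1, Lep and Ucp1, which were lower, where 12.9% of all probe sets were. Under quantile normalization and median centring those lower were Plin1 and Ucp1, and Cidea remained higher. Over all probe sets the shares separated upward and downward became 6.61% and 10.5% under the first and 11.6% and 7.36% under the second, which turned their balance. The median log2 difference of the members was -0.07, beside -0.02 over all probe sets, -0.07 over the 15167 probe sets at or below the olfactory limit and -0.11 over the olfactory receptors.

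Leaving out both arrays labelled 2 gave log2 differences of -0.92 for Ucp1, -0.30 for Plin1, -0.15 for Lep, 0.16 for Cidea, 0.13 for Car3, 0.07 for Cidec, 0.06 for Retn and 0.02 for Adipoq. Adipoq and Retn thereby changed sign, and none of the 8 had an unadjusted p under 0.05 in limma. With the arrays labelled 2 exchanged between the groups, the log2 differences were -0.54 for Ucp1, -0.15 for Plin1, -0.06 for Lep, 0.04 for Cidea, 0.11 for Car3, 0.07 for Cidec, 0.15 for Retn and 0.09 for Adipoq, again with no unadjusted p under 0.05 in limma. The groups then overlapped for all 8 members, while 6.4% of all probe sets were separated upward and 6.44% downward. Groups that do not overlap must overlap once any WT array and any VAChT KDHOM array are exchanged. For Plin1, Lep, Ucp1 and Cidea this outcome was therefore fixed in advance, and it cannot show whether the labels are right.

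**Figure D2:**
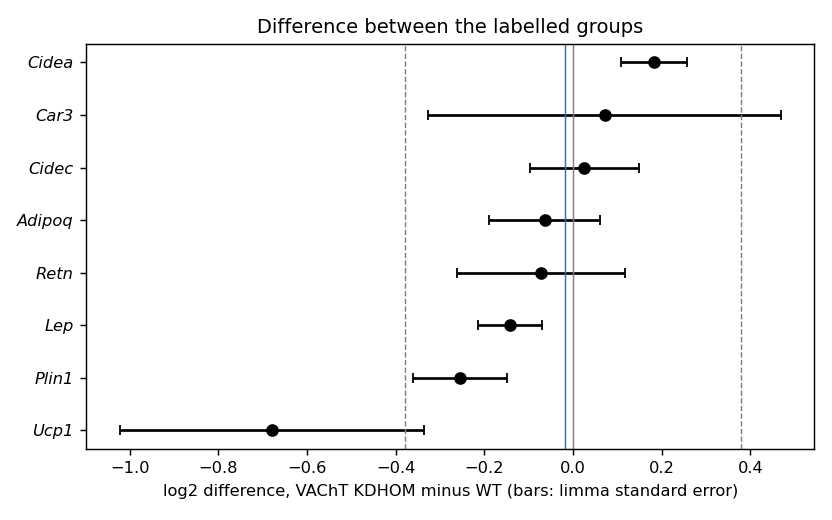
Log2 difference, VAChT KDHOM minus WT (horizontal axis), for each measured fat gene, with bars of 1 limma standard error on either side. Dashed lines mark 1.3-fold, the blue line the median of all probe sets and the grey line 0. Ucp1 lies at -0.68 with the second widest bar, and Cidea at 0.18 is the highest.

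The array on which a fat gene was highest or lowest was compared next. VAChT KDHOM 3 was the highest and VAChT KDHOM 1 the lowest array for 4 of the 8 members, Adipoq, Retn, Cidec and Car3, a pattern chosen after the values were seen that 4.86% of all probe sets showed. The same count of 4 was found under both other scalings. Of these members, Adipoq lay below the olfactory limit on every array, and its highest signal, 6.13, was close to the 6.07 on WT 2. Plin1 and Lep, also white fat genes, had their lowest signal on VAChT KDHOM 3. WT 1 was the highest array for 2 members, Plin1 and Ucp1, and for 31.2% of all probe sets.

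Genes of other tissues moved on the same arrays. The mean of 9 atrial genes was 0.50 above its average over the arrays on VAChT KDHOM 3, where 8 of the 9 had their highest signal. Bmp10, a growth factor of atrial muscle, read 7.43 on this array and 5.19 to 5.64 on the others, and Myl7, the atrial light chain of myosin, read 11.08 against 9.90 to 10.62. Mybphl was likewise highest there, at 8.33 against 7.54 to 7.89. All 12 genes listed for ventricular cardiomyocytes had their lowest signal on VAChT KDHOM 1. Their mean was 12.86 there against at least 13.40 on the other arrays. Tnnt2 and Actc1 both read 13.59 there and at least 14.50 elsewhere, and Actn2 read 12.86 against at least 13.07. Some bright genes of other lists were also lowest on VAChT KDHOM 1. Cox7a1 read 12.93 there and at least 13.11 elsewhere, and Cox8b 13.12 against at least 13.42. Pdk4 and Myl4, also bright, were lowest on WT 3 and WT 2, at 12.31 and 11.83. Whether the low cardiomyocyte signals went with brightness or with cell type was not tested. The part of these shifts in the fat gene values was not tested either. The share of all probe sets highest on VAChT KDHOM 3, or lowest on VAChT KDHOM 1, was not counted. Counts of genes at either of these extremes alone, here and below, therefore cannot be called high or low. In other lists, 11 of 21 white adipocyte genes, 8 of 16 lipid droplet genes and 0 of 6 beige adipocyte genes were lowest on VAChT KDHOM 1.

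**Figure D3:**
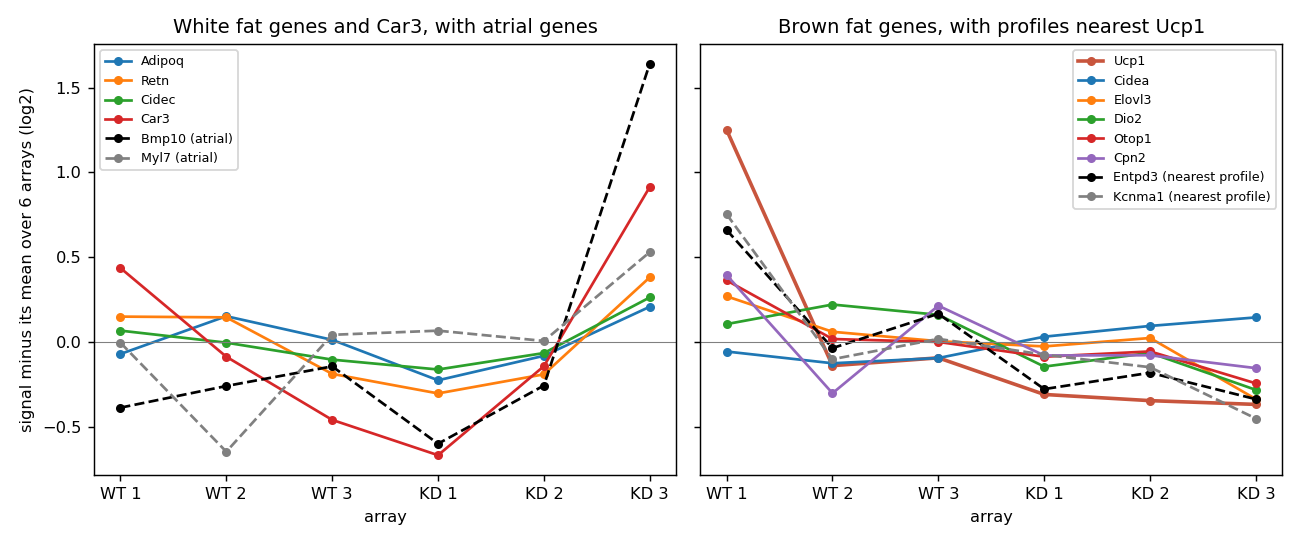
Log2 signal minus its mean over the 6 arrays (vertical axis) for single genes on each array (horizontal axis; lines only join the points of a gene, since arrays have no order; KD stands for VAChT KDHOM). At left, Car3, Retn, Cidec and Adipoq are highest on VAChT KDHOM 3, as are the atrial genes Bmp10 and Myl7; at right, Ucp1 is highest on WT 1 while Cidea is not.

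Beyond the members, 21 of 23 other genes of white adipocytes and their hormones were measured. Of these, Thrsp, a regulator of fat synthesis, was higher and Orm1, an acute-phase protein, lower at an unadjusted p under 0.05, and none passed 1.3-fold as well or an adjusted p of 0.05 in limma. Orm1 read 5.88 to 6.38, below the olfactory limit on every array, and its groups overlapped. Beside the counts by p here and in the lists below, 11.7% of all probe sets had an unadjusted p under 0.05 in limma. Where groups did not overlap, 6.25% of all probe sets were separated with VAChT KDHOM higher and 12.9% with it lower. Thrsp read 8.13, 8.01 and 8.07 in WT and 8.29, 8.29 and 8.71 in VAChT KDHOM. Its log2 difference was 0.36 (standard error 0.13, adjusted p = 0.409 from limma), and the groups did not overlap.

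Mrap, a partner of the melanocortin receptor in adipocytes and the adrenal, had the widest range of this list, from 7.27 on VAChT KDHOM 1 to 8.12 on VAChT KDHOM 3. Nnat, which encodes neuronatin, had its lowest and highest signal on the same pair of arrays, a range of 0.70. These were the arrays that bounded Car3, Retn, Cidec and Adipoq. Over the list 3 of 21 genes had this pair of extremes, against 4.86% of all probe sets, 11 were lowest on VAChT KDHOM 1 and 5 highest on VAChT KDHOM 3. The median log2 difference of the list was -0.07, and its summed linear signal ran from 27405.5 to 32654.4, carried largely by Fabp4 and Lpl, genes of fatty acid transport and uptake that cardiac endothelium and muscle also express.

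All 16 genes of lipid droplets and lipolysis were above the olfactory limit, none had an unadjusted p under 0.05, and their median log2 difference was -0.01. Mgll, the lipase of monoglycerides, ran from 9.90 on VAChT KDHOM 1 to 10.41 on VAChT KDHOM 3. G0s2, an inhibitor of the main triglyceride lipase, was highest on VAChT KDHOM 3 at 8.54 and read 8.04 to 8.22 elsewhere. Plin5, the perilipin of heart and other oxidative muscle, ran from 9.42 to 9.64. Bscl2, which encodes seipin, and Hilpda, a droplet protein of hypoxia, had the smallest p of the list, with log2 differences of 0.13 and 0.10 (adjusted p = 0.567 and 0.57 from limma).

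Of 12 adipogenic transcription factors 1 had an unadjusted p under 0.05. This was Cebpd, at 6.76, 6.88 and 6.80 in WT and 6.59, 6.68 and 6.56 in VAChT KDHOM (log2 difference -0.21, standard error 0.08, adjusted p = 0.409 from limma). Klf5 did not pass, at a log2 difference of -0.17 with an adjusted p of 0.459 in limma, and Klf15 and Cebpb had the widest ranges, with overlap of the groups. Pparg, the master regulator of fat cell formation, ran from 9.27 to 9.54 with a log2 difference of 0.10 (adjusted p = 0.632 from limma).

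The 8 enzymes of fat synthesis had no unadjusted p under 0.05 and a median log2 difference of 0.02. Scd1, the desaturase that makes oleate, read 9.86 on WT 1 and 8.57 to 9.28 on the other arrays. Fasn, the fatty acid synthase, was likewise highest on WT 1 at 8.46, with 7.77 to 8.05 elsewhere. Elovl6, an elongase of fatty acids, was highest there too, at 7.27. These 3 were the only ones of the list highest on WT 1. The other 5, Acly, Acaca, Scd2, Me1 and Elovl5, were highest on VAChT KDHOM 3, Scd2 at 8.60 against 7.83 on WT 1.

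Among 20 measured genes of brown adipocytes outside the members, Ucp3 was higher and Dio2 lower at an unadjusted p under 0.05. Dio2, the deiodinase that activates thyroid hormone, read 6.31, 6.43 and 6.37 in WT and 6.06, 6.14 and 5.93 in VAChT KDHOM, all below the olfactory limit (log2 difference -0.33, standard error 0.09, adjusted p = 0.409 from limma). Ucp3, the uncoupling protein that muscle also expresses, read 9.62, 9.81 and 9.45 in WT and 9.99, 9.96 and 9.84 in VAChT KDHOM (log2 difference 0.30, standard error 0.11, adjusted p = 0.409 from limma). Groups did not overlap for either gene, beside 12.9% of all probe sets separated in the direction of Dio2 and 6.25% in that of Ucp3.

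WT 1, the array with the high Ucp1, was also the highest for Otop1 at 7.36 against 6.75 to 7.01, for Cpn2 at 6.10 against 5.40 to 5.92 and for Elovl3 at 5.05 against 4.44 to 4.84. Cpn2 and Elovl3 lay below the olfactory limit on all 6 arrays. Over the list, 7 of 20 genes were highest on WT 1, a share near the 31.2% of all probe sets. The mitochondrial genes Cox7a1 and Cox8b, shared by brown fat and heart muscle, were not highest there, with 13.18 and 13.51 on WT 1 and highest signals of 13.49 on VAChT KDHOM 2 and 13.65 on VAChT KDHOM 3. WT 1 also had the highest mean of the olfactory receptor probe sets, 4.99 against 4.74 to 4.86, and the part of this in the Ucp1 signal was not tested.

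The 8 genes whose profile over the 6 arrays was nearest to Ucp1, by the root mean square difference after each gene's mean was removed, were Kcnma1 (0.25), Olfr535 (0.27), Olfr767 (0.27), Entpd3 (0.28), Mir483 (0.28), Obp2a (0.28), Olfr1042 (0.29) and Olfr1347 (0.29), in log2 units. None of them was on the brown or beige adipocyte lists. Of the 8, 4 were olfactory receptors, a family with 1023 of the 21789 probe sets of 1 symbol. Except for Olfr767 their ranges, from 0.82 for Obp2a to 1.20 for Kcnma1, were narrower than the 1.62 of Ucp1. The reason for this likeness was not tested. For Car3, a comparison added after its values were seen, Slc15a2 was nearest at 0.19, followed by Cyp2e1 at 0.29, an enzyme of xenobiotic metabolism that ran from 6.70 on VAChT KDHOM 1 to 8.05 on VAChT KDHOM 3. Adipoq spanned less than 1 log2 unit, and no genes were named for it.

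Of 7 beige adipocyte genes 6 were measured, and 2 were lower at an unadjusted p under 0.05 in limma. In either direction, 11.7% of all probe sets had such a p. Tnfrsf9, a receptor of the tumour necrosis factor family, had a log2 difference of -0.34 (standard error 0.13) and Cited1, a transcriptional regulator, of -0.24 (standard error 0.09), both with an adjusted p of 0.409 in limma. Both were highest on WT 1, at 7.23 and 7.50, and their groups did not overlap. Of all probe sets 12.9% were separated in this direction. Of the 6 genes, 4 were highest on WT 1, beside 31.2% of all probe sets, and 4 had a mean above the olfactory limit. The median log2 difference was -0.19, beside -0.02 over all probe sets and -0.11 over the olfactory receptors. Ckmt1 ran from 6.99 to 7.47 with overlap of the groups.

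Of 7 measured genes for receptors of the fat hormones and their partners none had an unadjusted p under 0.05, and the median log2 difference was 0.03. Adipor1 and Adipor2, the receptors of adiponectin, had log2 differences of 0.02 and -0.02, and Cdh13, the cadherin that binds adiponectin, 0.03. Lepr, the leptin receptor, ran from 6.42 to 6.75. Appl1, an adaptor of the adiponectin receptors, was higher on every VAChT KDHOM array (log2 difference 0.09, adjusted p = 0.627 from limma), and C3ar1 had the widest range, from 8.33 on VAChT KDHOM 1 to 8.69 on VAChT KDHOM 3.

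Cfd could not be read, and 8 measured genes of the complement system at large do not stand in for it as markers of fat. None of the 8 had an unadjusted p under 0.05 in limma. C1qc was bounded by VAChT KDHOM 1 at 9.12 and VAChT KDHOM 3 at 9.69, as were the members named above, and the C5a receptor gene C5ar1 ran from 6.95 to 7.42. Cd55, a membrane inhibitor of complement, was higher on each VAChT KDHOM array (log2 difference 0.21, adjusted p = 0.449 from limma), and C1qa had a difference of 0.17 with overlap. Beside Car3, 15 other carbonic anhydrases were measured. Only Car5a among them had an unadjusted p under 0.05 (log2 difference -0.21, adjusted p = 0.409 from limma), on signals of 6.13 to 6.42 below the olfactory limit. Car5b was highest on VAChT KDHOM 3 at 6.53, and Car1 was highest on WT 1 at 6.20.

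Lists of tissues that lie next to the heart fat were read for the same arrays. Mesothelial and epicardial genes had no unadjusted p under 0.05 among 12, and their list mean lay from -0.11 to 0.11 about its average over the arrays. Krt8, a keratin, ran from 7.52 on VAChT KDHOM 3 to 8.11 on WT 1, and Tcf21, a factor of the epicardial lineage, from 7.85 on VAChT KDHOM 1 to 8.38 on VAChT KDHOM 3. Muc16, a mucin of mesothelium, had the smallest p (log2 difference 0.23, adjusted p = 0.492 from limma), on signals that all lay below the olfactory limit. In the list of fast skeletal muscle Actn3 and Tnni2 were lower at an unadjusted p under 0.05 (log2 differences -0.24 and -0.27, adjusted p = 0.409 and 0.41 from limma), and 9 of 12 genes were highest on WT 1. Of all probe sets 31.2% were highest on WT 1. Tnnt3 ran from 7.30 on VAChT KDHOM 3 to 7.83 on WT 1, but Acta1, an actin that heart muscle also expresses, was lowest on WT 1 at 10.63 and highest on VAChT KDHOM 3 at 11.48.

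Lung genes had no unadjusted p under 0.05 among 10, with 8 highest on WT 1 and a summed linear signal of 697.8 to 979.7. Sftpd, which had the widest range of the list, read 5.56 to 6.54. Cldn18 and Sftpb had the smallest p of that list, with log2 differences of -0.31 and -0.21 (adjusted p = 0.445 and 0.452 from limma). Of 9 thymus genes Cd8a and Cd3e were lower at an unadjusted p under 0.05 (log2 differences -0.40 and -0.22, adjusted p = 0.409 for both from limma), Cd8a with more than 1.3-fold, and the list summed to 592.3 to 738.9 with 7 genes highest on WT 1 and Themis from 4.40 to 5.06. In the list of autonomic ganglia and nerve, Th was lower at -0.34 (adjusted p = 0.409 from limma), Phox2a had a difference of -0.16 with overlap, and 6 of 12 genes were highest on WT 1. WT 1 was the highest array for 31.2% of all probe sets. Only 4 of the 10 lung genes and 2 of the 9 thymus genes had a mean above the olfactory limit, so most of these orders are among signals not above background.

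Of the 3 red blood cell genes with a probe set, Bpgm had an unadjusted p under 0.05 (log2 difference 0.30, adjusted p = 0.416 from limma), and Alas2, the heme enzyme of red cell precursors, ran from 8.65 on WT 1 to 10.03 on VAChT KDHOM 3. Slc4a1, the anion exchanger of red cells, had a log2 difference of the opposite sign, -0.26 (adjusted p = 0.545 from limma), and was highest on WT 1 at 7.59. Endothelial and fibroblast genes, 8 each, had no unadjusted p under 0.05, with list medians of 0.02 and 0.01. The endothelial genes named by p or range were Vwf, Kdr and Cldn5, with log2 differences of -0.09, 0.10 and -0.03, and the fibroblast genes were Postn, Fn1 and Lum, with 0.24, 0.20 and 0.21. Their summed linear signal ran from 9871.7 to 12187.1 and from 11435.2 to 14551.9. The summed signal of the atrial genes ran from 12075.0 on WT 2 to 17915.5 on VAChT KDHOM 3 and that of the cardiomyocyte genes from 103398.9 on VAChT KDHOM 1 to 171157.5 on VAChT KDHOM 2. No gene of any of these lists passed an adjusted p of 0.05 in limma.

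**Figure D4:**
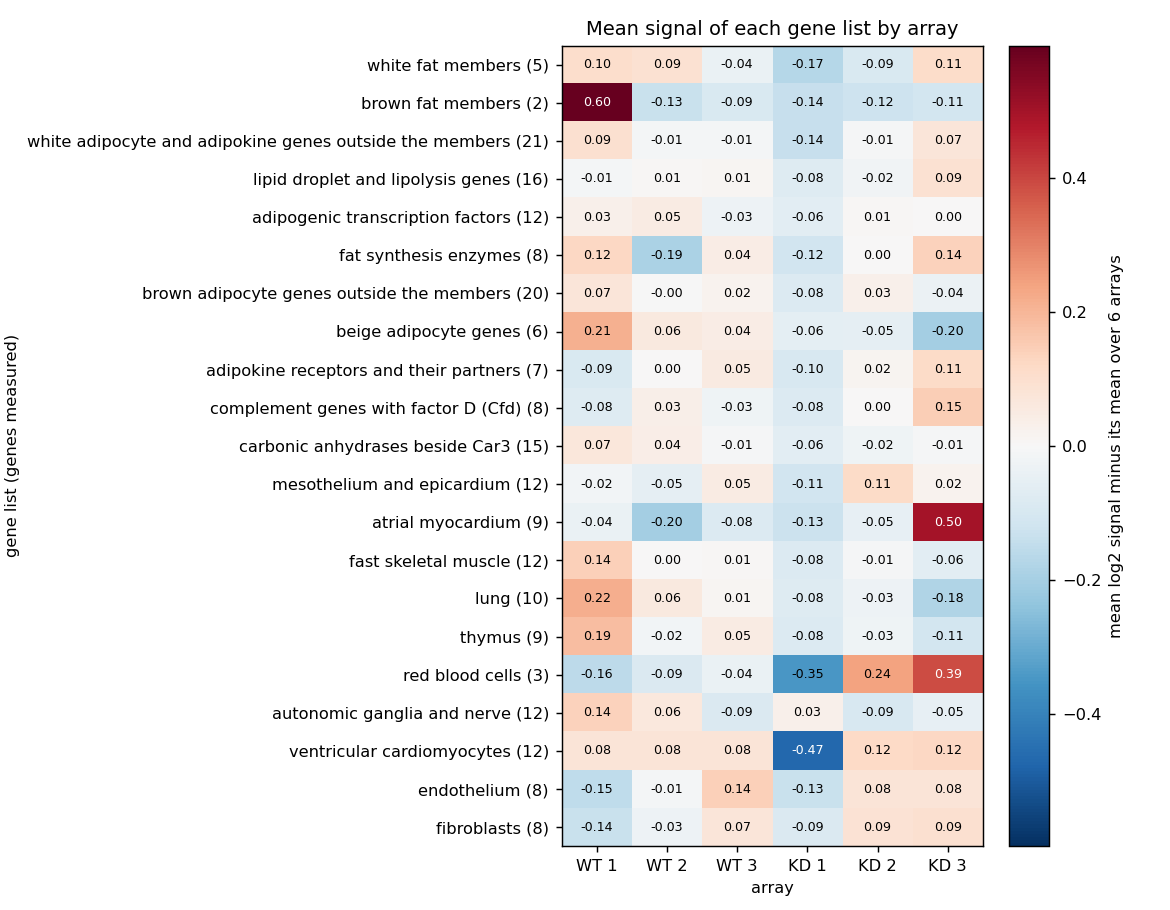
Mean log2 signal of each gene list minus its average over the 6 arrays (colour and printed value) by array, with the number of genes measured in brackets and KD for VAChT KDHOM. The pair Ucp1 and Cidea stands at 0.60 on WT 1, the atrial genes at 0.50 on VAChT KDHOM 3 and the ventricular cardiomyocyte genes at -0.47 on VAChT KDHOM 1, while the 5 white fat members lie between -0.17 and 0.11.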

How the data were processed

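Gene expression in mouse heart was measured on 6 Affymetrix Mouse Gene ST arrays, grouped by the genotype and number in their labels. The authors ran RMA in Partek Genomics Suite, which corrects background, normalizes between arrays and joins the probes of a gene, and they deposited the resulting log2 signals. The genome build behind them is not given in the sources used here. Of 35556 probe sets the platform annotation supplied with the values gives 21789 1 symbol, 1621 several, which were not named, and leaves 12146 unlisted. Promoters came from RefSeq (GRCm38.p6).

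Values were used without a filter. All probe sets entered 1 fit of limma 3.58.1 (lmFit, then eBayes) under R 4.3.3, with Benjamini-Hochberg adjustment, a procedure tested on simulated data. Member values also had an exact permutation test. Every member was named, and from each other list the 2 genes with the smallest p and the 2 with the widest range. Genes outside this rule (Fabp4, Lpl, Plin5, Pparg, Fasn, Acly, Acaca, Me1, Elovl5, Elovl3, Cox7a1, Cox8b, Pdk4, Myl4, Adipor1, Adipor2, Cdh13, and the neighbours of Car3) were picked after their values were seen. A gene with several probe sets was read from the brightest. The members and lists were chosen with earlier results of these data known. Alternatives were 2 scalings, 2 filters, other eBayes settings, array weights, the methods' ANOVA, the replicate block, arrays left out and, added after seeing the data, the arrays labelled 2 exchanged. Same-numbered arrays were not treated as pairs.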

Additional observations from a re-analysis of the deposited data

How the results depend on the processing

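The members' precision is limited by 3 arrays a group and by dim signal, since Adipoq, Lep and, on 5 arrays, Ucp1 lay within the olfactory range. No member passed an adjusted p of 0.05 under any alternative run. With the methods' ANOVA the unadjusted p was under 0.05 for Lep and Cidea, and above it for Plin1. Members past both thresholds numbered 0 in each alternative except without WT 2 or WT 3, where Ucp1 made it 1, a range of 0 to 1 when arrays were left out in turn. The cause of the changes below was not tested.

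The median log2 difference of the members was 0.0255 with either filter on dim probe sets, which leaves 5 of the 8, 0.0392 without both arrays labelled 2, 0.0509 with them exchanged, chosen after seeing the data, and from -0.1998 to 0.0459 with 1 array left out. Adipoq reversed to 0.0096 with quantile normalization, 0.0021 with median centring and 0.0201 without both arrays labelled 2, Retn to 0.0582 in the last case, both to 0.0912 and 0.1506 in that order with these arrays exchanged, and Cidec to -0.0092 with array weights. With 1 array left out, log2 differences ran from -0.1847 to 0.0319 for Adipoq, -0.2823 to 0.0598 for Retn, -0.0999 to 0.1124 for Cidec, -0.3681 to 0.4223 for Car3, -0.3214 to -0.1545 for Plin1, -0.1632 to -0.1309 for Lep, -0.919 to -0.2245 for Ucp1 and 0.1549 to 0.2117 for Cidea.

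Over all probe sets, 1348 passed both thresholds in limma with the values as deposited, 578 and 597 with the filters on the mean and on at least 3 arrays, 587 with the ANOVA, 2800 without both arrays labelled 2, 796 with them exchanged and 841 to 2173 with 1 array left out. The single probe set at an adjusted p of 0.05 became 0 with the filters, the ANOVA, the block, both arrays labelled 2 left out or any 1 array left out, and 3 with array weights.

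The labels share replicate numbers between the groups. Deviations of same-numbered arrays correlated at 0.057, -0.125 and 0.133, so the numbers were not taken to pair the arrays. The fit with the replicate block called 1489 probe sets past both thresholds and 0 members, left each log2 difference of a member as it was, and took Cidea to an unadjusted p of 0.0786 in limma.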
